A study of Mus musculus with 6 samples.

Results

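Interleukin receptor genes encode the chains through which T cells sense interleukins, and 34 of them were followed across 6 cultures of mouse CD4 T cells. They were chosen by a rule on names, with earlier results of these data known. The rule took probe sets with exactly 1 gene symbol in the platform annotation, of the form Il, a number and r (or st). Il18rap and Il1rap were taken as well, and the antagonist gene Il1rn was left out. This gave 57 probe sets for 34 of the 17097 genes measured, and each gene was read through its probe set of highest mean. The cells were CD4+CD25- T cells from female C57BL/6 mice, 2 cultures per group, each on 1 array. Every well was coated with anti-CD3 (2 µg/ml), which engages the T cell receptor, and culture lasted 4 days with human TGF-beta (0.36 ng/ml) and mouse IL-2 (10 ng/ml) in the medium. The anti-CD3 wells carried control IgG besides. The B7-2 wells also carried the CD28 ligand B7-2 as an Fc fusion (3 µg/ml), again with IgG, and the BTNL2 wells carried the same B7-2 plus an Fc fusion of BTNL2 (11 µg/ml), a butyrophilin-like relative of the B7 proteins. Removal of CD25+ cells at the start took out cells that already displayed the protein made by Il2ra, and added IL-2 was present in all 3 groups. Nothing in the labels ties the duplicates to separate animals, so p-values measure the spread between these cultures and arrays, which may be technical.

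Most of these receptors work as dimers or trimers in which 1 chain binds a particular cytokine and a second, shared chain carries the signal. Receptors of the class built around the common gamma chain, gp130 and the IL-12 and IL-10 chains signal through Janus kinases and STAT factors, while those of the IL-1 and IL-18 type signal through the adaptor MyD88 and kinases of the IRAK family. In CD4 T cells the set of chains on the surface is known to follow the cell's lineage: IL-12 and IL-18 receptors mark Th1 cells, the IL-4 receptor serves Th2 cells, and the IL-2 receptor serves activated and regulatory T cells. A few members are decoys that bind a cytokine and pass on no signal.

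Values are RMA intensities on a linear scale, tests were done on log2 values, and a gene is called where the limma adjusted p over all 17097 genes is under 0.05. With B7-2 added to anti-CD3, 2 of the 34 receptor genes were called higher and 8 lower, which is 5.88% and 23.5%, against 11.2% and 13.3% of all genes and 24.5% in either direction. With BTNL2 added to B7-2, 10 were called higher and 3 lower, 29.4% and 8.82%, against 9.52% and 10.8% of all genes and 20.4% in either direction. Between the BTNL2 and the anti-CD3 wells, 8 were higher and 6 lower, 23.5% and 17.6%, against 14.2% and 16.2% of all genes and 30.4% in either direction. The median log2 change over the 34 genes was -0.06, 0.08 and 0.03 in these comparisons, beside 0.00, -0.01 and 0.00 over all genes. In either direction 29.4%, 38.2% and 41.2% of the members were called. Of the 27 members above the dim level defined below, 37%, 48.1% and 51.9% were called. Of all genes above that level, 33.8%, 27.8% and 41.7% were called. The share called higher for BTNL2 against B7-2 stood furthest from its background. Above the dim level it was 37% of the members, against 13.1% of all genes. The 3 comparisons share arrays, so their values are set side by side and not counted against each other. In all, 17 members were called in at least 1 comparison and 17 in none; of all genes, 40.6% were called in at least 1.

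**Figure D1:**
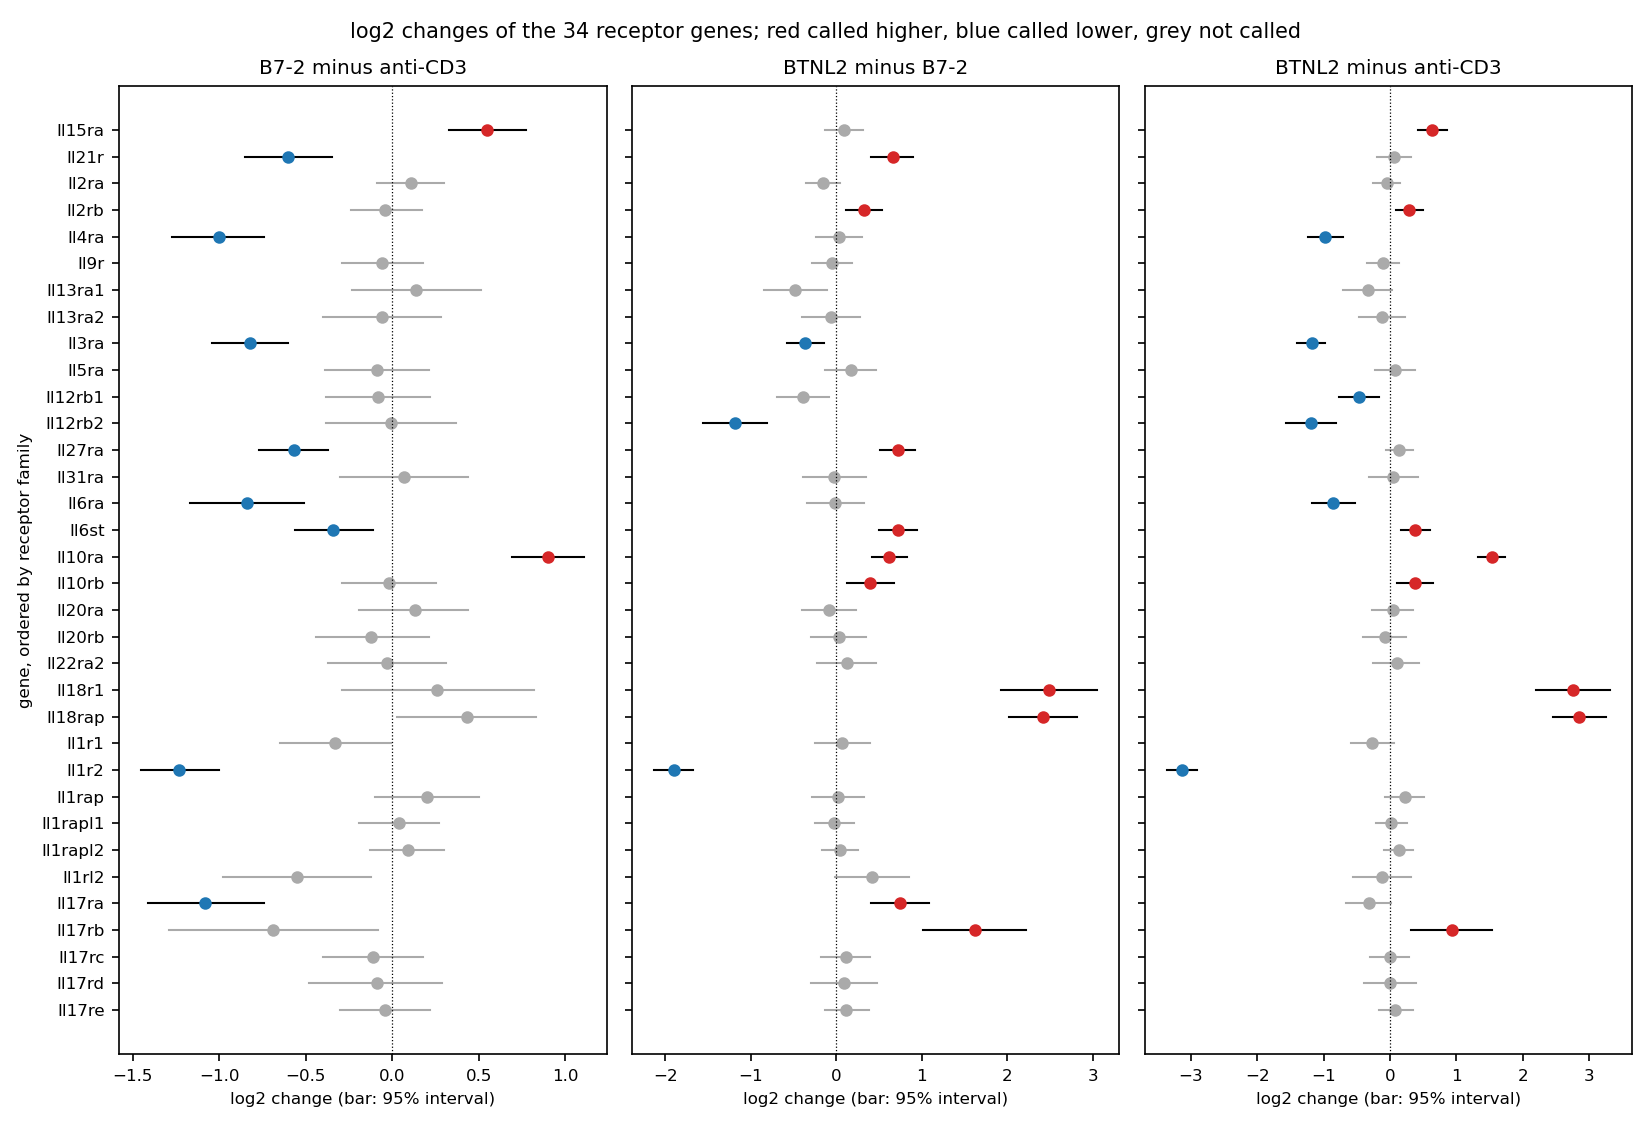
log2 change of each of the 34 receptor genes (points) with its 95% interval (bars) in 3 comparisons, ordered by receptor family; red is called higher, blue called lower and grey not called by limma at an adjusted p under 0.05. Il18r1, Il18rap and Il1r2 lie furthest from 0 in the BTNL2 panels; the horizontal scale differs between panels.

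The 6 arrays had median intensities of 18.4 to 18.8, and nonspecific control probe sets had medians of 3.68 to 4.49 and a highest value of 5.99. Members with a mean under 12.4, the level that 40% of probe sets fall short of, are termed dim here, and 7 of the 34 were dim: Il1r1, Il1rapl1, Il1rapl2, Il5ra, Il13ra1, Il22ra2 and Il9r. Replicate arrays correlated at r = 0.997 to 0.998 over all genes and arrays of different groups at 0.974 to 0.987, where genes are not independent replicates. For Gapdh the 3' to 5' signal ratio, a sign of RNA quality, reached 1.40 and 1.43 in the BTNL2 cultures and stayed between 1.27 and 1.37 elsewhere, while that of actin was 1.79 and 1.72 there and 1.67 to 1.92 elsewhere; their part in the results was not tested. CD4 T cell markers summed to 17303 to 17709, 13509 to 13817 and 13029.7 to 13111 in the anti-CD3, B7-2 and BTNL2 wells. All 7 stood above the dim level; 3 were called lower with B7-2 and 2 with BTNL2 against B7-2. Among 9 markers of CD8 T and NK cells, 7 were called higher with BTNL2 against B7-2, and only Ncr1 was dim. With B7-2 against anti-CD3, 4 were called lower. The 9 summed to 5114 to 5414, 4965 to 5025 and 10406 to 10578 in the anti-CD3, B7-2 and BTNL2 wells. Gzma gave the largest part of the rise with BTNL2, with means of 1885 in the B7-2 and 5119 in the BTNL2 wells. Nkg7 had means of 2829 and 3827 there, Cd8a of 113 and 955 and Cd8b1 of 36.3 and 89.1. The 6 B cell markers summed to 703 to 764, 367 to 371 and 680.4 to 874 in the anti-CD3, B7-2 and BTNL2 wells. Pax5 was dim throughout, and 4 were called lower with B7-2 and 4 higher with BTNL2 against B7-2. With B7-2, 42.9%, 44.4% and 66.7% of the CD4, CD8 and NK, and B cell markers were called lower, against 13.3% of all genes. With BTNL2 against B7-2, 28.6% of the CD4 markers were called lower (all genes 10.8%). There 77.8% of the CD8 and NK and 66.7% of the B cell markers were called higher (all genes 9.52%). None of 8 myeloid and none of 7 mast cell or basophil markers was called by limma in any comparison (at most 1 per list at an unadjusted p under 0.05), and Lyz2, Itgam, Adgre1, Mpo, Fcer1a, Ms4a2, Kit, Cpa3 and Mcpt4 were dim in every group, Cd14 in the BTNL2 wells. The part of other cell types in the receptor values was not tested, and in bulk RNA fewer cells of a type and less RNA per cell cannot be told apart.

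The genes of both IL-18 receptor chains rose with BTNL2, and that of the IL-1 decoy receptor fell with each added ligand. Il18r1, the chain that binds IL-18, read 51.0 and 56.0 in the anti-CD3 wells, 57.5 and 71.7 in the B7-2 wells, and 468 and 278 in the BTNL2 wells. Il18rap, the accessory chain needed for the signal, read 45.1 and 33.4, 53.9 and 50.9, and then 315 and 249.6. Both BTNL2 cultures lay far above the other 4 for each chain, and the BTNL2 duplicates were themselves 468 against 278 for Il18r1. Against the B7-2 wells Il18r1 was 5.62-fold higher (log2 change 2.49 ± 0.24 (SE, n = 2 arrays per group), limma adjusted p = 0.000468) and Il18rap 5.35-fold higher (2.42 ± 0.17, adjusted p = 0.000126). B7-2 alone gave log2 changes of 0.26 ± 0.24 for Il18r1 (adjusted p = 0.493) and 0.43 ± 0.17 for Il18rap (adjusted p = 0.116), and neither was called. The other Il18rap probe set gave a log2 change of 1.81 with BTNL2 (adjusted p = 0.000229 in a fit over all probe sets, as for other single probe sets here), in the same direction. These rises stand beside the higher CD8 T and NK cell markers of the BTNL2 wells given above.

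Il1r2, which binds IL-1 without signalling, read 249 and 225 with anti-CD3, 99.7 and 103 with B7-2, and 26.1 and 28.2 with BTNL2. The 3 groups did not overlap, and duplicates were close. B7-2 lowered it 2.34-fold (log2 change -1.23 ± 0.10, limma adjusted p = 0.000443) and BTNL2 a further 3.74-fold (-1.90 ± 0.10, adjusted p = 3.71e-05), which made it 8.74-fold lower in the BTNL2 than in the anti-CD3 wells (-3.13 ± 0.10, adjusted p = 6.24e-06). Il1r1, the signalling IL-1 receptor, stayed dim at 7.09 to 10.6 on all arrays, and its shared partner Il1rap read 24.9 to 34.3. Neither was called, with log2 changes of 0.07 and 0.02 for BTNL2 against B7-2. Il1rl2, the IL-36 receptor, read 32.0 and 30.8, 20.6 and 22.4, and 35.4 and 23.4 (adjusted p = 0.0717 for B7-2 and 0.162 for BTNL2). Its BTNL2 duplicates lay far apart, the second close to the B7-2 wells. Il1rapl1 and Il1rapl2, relatives best known from neurons, read 3.39 to 5.74, the range of the nonspecific controls.

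Il1r2, Il1r1, Il1rl2, Il18r1 and Il18rap are neighbours on chromosome 1 in that order, by the RefSeq gene table of GRCm38.p6, with only Il1rl1, not analysed here, between Il1rl2 and Il18r1. The members at both ends of the row changed in opposite directions with BTNL2, while Il1r1 and Il1rl2 between them were not called. The RefSeq windows of the 3 members with the largest called changes are shown. They span 250 bases before to 50 after an annotated start (GRCm38.p6, plus strand). Capitals mark the STAT motif TTCNNNGAA, which reads the same on both strands. The windows are chr1:40085843-40086142 for Il1r2, chr1:40465756-40466055 for 1 of the 3 annotated starts of Il18r1 and chr1:40515112-40515411 for Il18rap.
Il1r2: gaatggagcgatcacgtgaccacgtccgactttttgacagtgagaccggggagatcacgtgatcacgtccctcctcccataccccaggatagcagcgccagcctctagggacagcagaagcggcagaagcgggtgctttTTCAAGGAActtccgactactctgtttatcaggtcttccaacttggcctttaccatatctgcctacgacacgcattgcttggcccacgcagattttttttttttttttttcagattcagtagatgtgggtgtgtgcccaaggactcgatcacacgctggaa
Il18r1: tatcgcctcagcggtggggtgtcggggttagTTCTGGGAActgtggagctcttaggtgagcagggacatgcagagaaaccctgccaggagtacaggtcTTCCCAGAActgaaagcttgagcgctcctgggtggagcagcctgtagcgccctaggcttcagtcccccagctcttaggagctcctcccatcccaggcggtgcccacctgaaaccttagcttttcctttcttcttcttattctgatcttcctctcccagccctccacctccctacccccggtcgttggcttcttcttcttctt
Il18rap: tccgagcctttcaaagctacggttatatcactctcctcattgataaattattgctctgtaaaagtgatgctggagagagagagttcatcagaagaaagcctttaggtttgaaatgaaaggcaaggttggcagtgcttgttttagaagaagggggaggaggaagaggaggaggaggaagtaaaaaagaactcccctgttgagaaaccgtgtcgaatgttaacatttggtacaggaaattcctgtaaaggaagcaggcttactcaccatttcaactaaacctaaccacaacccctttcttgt
The motif began 111 bases before the start in the Il1r2 window and 219 and 152 bases before it in this Il18r1 window; no match lay in the other Il18r1 windows or in that of Il18rap. Of the 34 members 27 had a window, and 4 of them held the motif (Il1r2, Il18r1, Il12rb2 and Il31ra), 14.8% against 9.55% of all 27025 genes with a window. A match is a description of these letters and not evidence of binding.

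**Figure D2:**
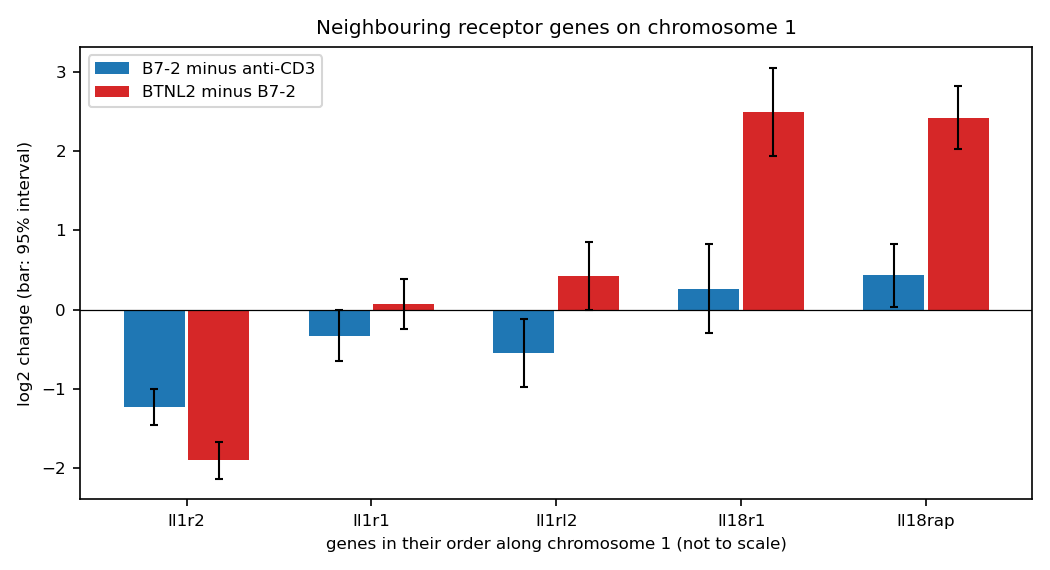
log2 change with its 95% interval for the 5 measured receptor genes that neighbour each other on chromosome 1, in their order and not to scale; blue bars are B7-2 minus anti-CD3 and red bars BTNL2 minus B7-2. Il1r2 is lower in both, Il18r1 and Il18rap are 2.49 and 2.42 log2 units higher with BTNL2, and the intervals of Il1r1 and Il1rl2 for BTNL2 include 0.

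Among the receptors of the common gamma chain group, B7-2 lowered Il4ra and Il21r and raised Il15ra, and BTNL2 raised Il21r and Il2rb. Il4ra, the chain that binds IL-4 and joins the IL-13 receptor, read 419.6 and 478 with anti-CD3, 237 and 211 with B7-2, and 217 and 239.6 with BTNL2. It was 2-fold lower with B7-2 (95% interval of the log2 change -1.27 to -0.74, SE 0.11, limma adjusted p = 0.00124). The BTNL2 wells overlapped the B7-2 wells, with a difference of 0.03 (95% interval -0.24 to 0.30). Il21r, the IL-21 receptor, read 363 and 353, 245 and 227, and 345 and 401, so only the B7-2 wells stood apart. It was 1.51-fold lower with B7-2 (-0.60 ± 0.10, adjusted p = 0.0066) and 1.58-fold higher with BTNL2 than with B7-2 (0.66 ± 0.10, adjusted p = 0.00506). Il4ra and Il21r are neighbours on chromosome 7, with no protein-coding gene between them.

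Il2ra, the alpha chain (CD25) of the high-affinity IL-2 receptor, was bright in all wells. It read 4265 and 4141 with anti-CD3, 4477 and 4570.1 with B7-2, and 4077 and 4042 with BTNL2. The log2 change was 0.11 with B7-2 (adjusted p = 0.431) and -0.16 with BTNL2 (95% interval -0.35 to 0.04, adjusted p = 0.253), and all 6 arrays lay between 4042 and 4570.1. With a variance prior that follows intensity the change of -0.16 was called (adjusted p = 0.0108). A second, weaker Il2ra probe set was lower with BTNL2 (log2 change -0.49, adjusted p = 0.0279). Il2rb, the beta chain shared by IL-2 and IL-15, read 2754 and 2719, 2658 and 2679, and 3228 and 3486. It was called 1.26-fold higher with BTNL2 than with B7-2 (0.33 ± 0.09, adjusted p = 0.0375), a call that was lost without any 1 of the 6 arrays (adjusted p = 0.0673 to 0.143). Without an anti-CD3 array, which that comparison does not use, the values (0.33, limma adjusted p = 0.0673) were those of a fit of only the groups compared. The other Il2rb probe sets gave 0.23 and 0.13 and were not called. Il15ra, which presents IL-15 to neighbouring cells, read 33.2 and 34.6, 49.5 and 49.8, and 50.3 and 55.5, and was 1.47-fold higher with B7-2 (0.55 ± 0.09, adjusted p = 0.0054; 0.37 and adjusted p = 0.0688 as the mean of its probe sets). Il9r was dim, at 7.54 to 8.61, and not called.

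Of the IL-13, IL-3 and IL-5 receptor genes, Il3ra alone was called. Il13ra1, the partner of Il4ra in the IL-13 receptor, read 9.67 to 15.9 and the decoy Il13ra2 14.5 to 18.5, and neither was called. Of the other 4 Il13ra1 probe sets, all dim, 1 (mean intensity 7.46) was called lower with BTNL2 against B7-2 (-0.41, limma adjusted p = 0.0231) and against anti-CD3 (-0.65, adjusted p = 0.00217). Il3ra, the IL-3 binding chain that joins the beta common subunit, fell with each added ligand. It read 147 and 157 with anti-CD3, 87.0 and 84.7 with B7-2, and 64.1 and 69.5 with BTNL2. These 3 groups did not overlap. B7-2 lowered it 1.77-fold (log2 change -0.82 ± 0.09, limma adjusted p = 0.00123) and BTNL2 a further 1.29-fold (-0.36 ± 0.09, adjusted p = 0.0326), the last of which was lost without any 1 array (adjusted p = 0.053 to 0.145). Il5ra, its relative for IL-5, stayed at 10.3 to 13.4 and was not called.

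In the gp130 and IL-12 receptor group B7-2 lowered 3 of 6 genes and raised none, and BTNL2 raised 2 and lowered 1. In this small group that is 50% lower with B7-2, against 13.3% of all genes. With BTNL2 against B7-2 it is 33.3% higher and 16.7% lower, against 9.52% and 10.8% of all genes. Il27ra, the specific chain of the IL-27 receptor, read 1219 and 1184 with anti-CD3, 818 and 799 with B7-2, and 1361 and 1296 with BTNL2. The B7-2 wells lay below both other groups, by 1.49-fold against anti-CD3 (log2 change -0.57 ± 0.09, limma adjusted p = 0.00357) and by 1.64-fold against BTNL2 (0.72 ± 0.09, adjusted p = 0.00134). Il6st, which encodes the gp130 chain shared by the IL-6 and IL-27 receptors, read 347 and 345, 289 and 259, and 437 and 466. It was 1.65-fold higher with BTNL2 than with B7-2 (0.72 ± 0.10, adjusted p = 0.00214), or 0.30 with an adjusted p of 0.0816 as the mean of its 3 probe sets, of which the other 2 were near 10.6 and 23.5. Its fall with B7-2 (-0.34 ± 0.10, adjusted p = 0.0406) was lost without any 1 array (adjusted p = 0.052 to 0.19). Il6ra, the IL-6 binding chain, read 297 and 273, 152 and 167, and 181 and 138. B7-2 lowered it 1.79-fold (-0.84 ± 0.14, adjusted p = 0.00545), and the BTNL2 arrays lay on either side of the B7-2 arrays. A second, weaker Il6ra probe set (mean intensity 17.6) gave -0.26 with B7-2 (limma adjusted p = 0.0873). For BTNL2 against anti-CD3 that probe set gave -0.14 (limma adjusted p = 0.33), and it was called in neither.

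Il12rb2, the chain that makes a cell responsive to IL-12, read 149 and 128 with anti-CD3, 141 and 133 with B7-2, and 51.5 and 70.6 with BTNL2. Only the BTNL2 wells stood apart. The level was 2.27-fold lower than with B7-2 (log2 change -1.18 ± 0.16, limma adjusted p = 0.0023), whereas B7-2 itself gave -0.01 (95% interval -0.38 to 0.37). Il12rb1, the chain shared by the receptors of IL-12 and IL-23, read 468 and 423, 411 and 428, and 286 and 359. Its difference between BTNL2 and B7-2 wells was -0.39 ± 0.13 and not called (adjusted p = 0.0757); it was called with a variance prior that follows intensity (adjusted p = 0.0125) and, at -0.55, without the second BTNL2 array (adjusted p = 0.0281). Against anti-CD3 it was called 1.39-fold lower (-0.47 ± 0.13, adjusted p = 0.0284), and the call was lost without the first anti-CD3 (adjusted p = 0.144), the second anti-CD3 (0.0626) or the first BTNL2 array (0.121). So both IL-18 receptor genes rose and the IL-12 receptor gene Il12rb2 fell in the same BTNL2 wells. Il31ra, the IL-31 receptor chain next to Il6st on chromosome 13, read 15 to 20.7 and was not called.

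The IL-10 receptor genes were higher with BTNL2. Il10ra, the chain that binds IL-10, read 58.3 and 57.9 with anti-CD3, 113 and 104 with B7-2, and 166 and 168 with BTNL2. The groups did not overlap and rose in that order: 1.87-fold with B7-2 (log2 change 0.90 ± 0.09, limma adjusted p = 0.000758), a further 1.54-fold with BTNL2 (0.62 ± 0.09, adjusted p = 0.00281), and 2.88-fold from anti-CD3 to BTNL2 (1.53 ± 0.09, adjusted p = 4.68e-05). Il10rb, the shared second chain, read 109 and 93.8, 95.3 and 104, and 124 and 139. It was called 1.32-fold higher with BTNL2 than with B7-2 (0.40 ± 0.11, adjusted p = 0.0471), and the call was lost without any 1 array (adjusted p = 0.0533 to 0.201). Il20ra, Il20rb and the soluble IL-22 decoy Il22ra2 read 8.14 to 28.0 and were not called.

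Il17ra, the subunit common to the IL-17 receptors, read 677 and 800.0 with anti-CD3, 390.3 and 312 with B7-2, and 626 and 553 with BTNL2. The B7-2 wells were the low group, 2.11-fold under anti-CD3 (log2 change -1.08 ± 0.14, limma adjusted p = 0.00224) and 1.69-fold under BTNL2 (0.75 ± 0.14, adjusted p = 0.0105). The rise with BTNL2 was not called without the second B7-2 array (adjusted p = 0.0519) or the first BTNL2 array (0.0687). A second Il17ra probe set gave -1.20 and 1.09. Il17rb, which pairs with Il17ra to bind IL-25, read 16.8 and 11.7, 7.2 and 10.6, and 22.6 and 31.8. It was 3.06-fold higher with BTNL2 than with B7-2 (1.62 ± 0.26, adjusted p = 0.00493), from wells that were below the dim level. Against anti-CD3 it was 1.9-fold higher (0.93 ± 0.26, adjusted p = 0.0315), but not without the second anti-CD3 (adjusted p = 0.169) or the second BTNL2 array (0.163). Il17rc, Il17rd and Il17re read 11.7 to 22.9 and were not called.

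Between the BTNL2 and the anti-CD3 wells, which differ by both added ligands, the largest rises were those of Il18rap (7.22-fold, log2 change 2.85 ± 0.17, limma adjusted p = 5.34e-05) and Il18r1 (6.75-fold, 2.75 ± 0.24, adjusted p = 0.000215). Il15ra was 1.56-fold higher (adjusted p = 0.00193). Il6st, Il10rb and Il2rb were called 1.3-fold, 1.3-fold and 1.23-fold higher (0.0208, 0.0419 and 0.0412). The Il2rb call was lost without any 1 array (0.0602 to 0.162), the Il10rb call without any but the first anti-CD3 array (0.0568 to 0.215), and the Il6st call without either anti-CD3 array or the second BTNL2 array (0.0841 to 0.0938). Besides Il1r2, the falls were those of Il12rb2 (2.28-fold, adjusted p = 0.00143), Il3ra (2.27-fold, 0.000147), Il4ra (1.97-fold, 0.000779), Il6ra (1.8-fold, 0.00353) and Il12rb1. Il17ra (-0.32, adjusted p = 0.145), Il21r (0.06, 0.744) and Il27ra (0.14, 0.271), all low with B7-2 alone, were not called here, and nor were Il2ra (-0.05, 0.718) and Il9r (-0.11, 0.5).

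**Figure D3:**
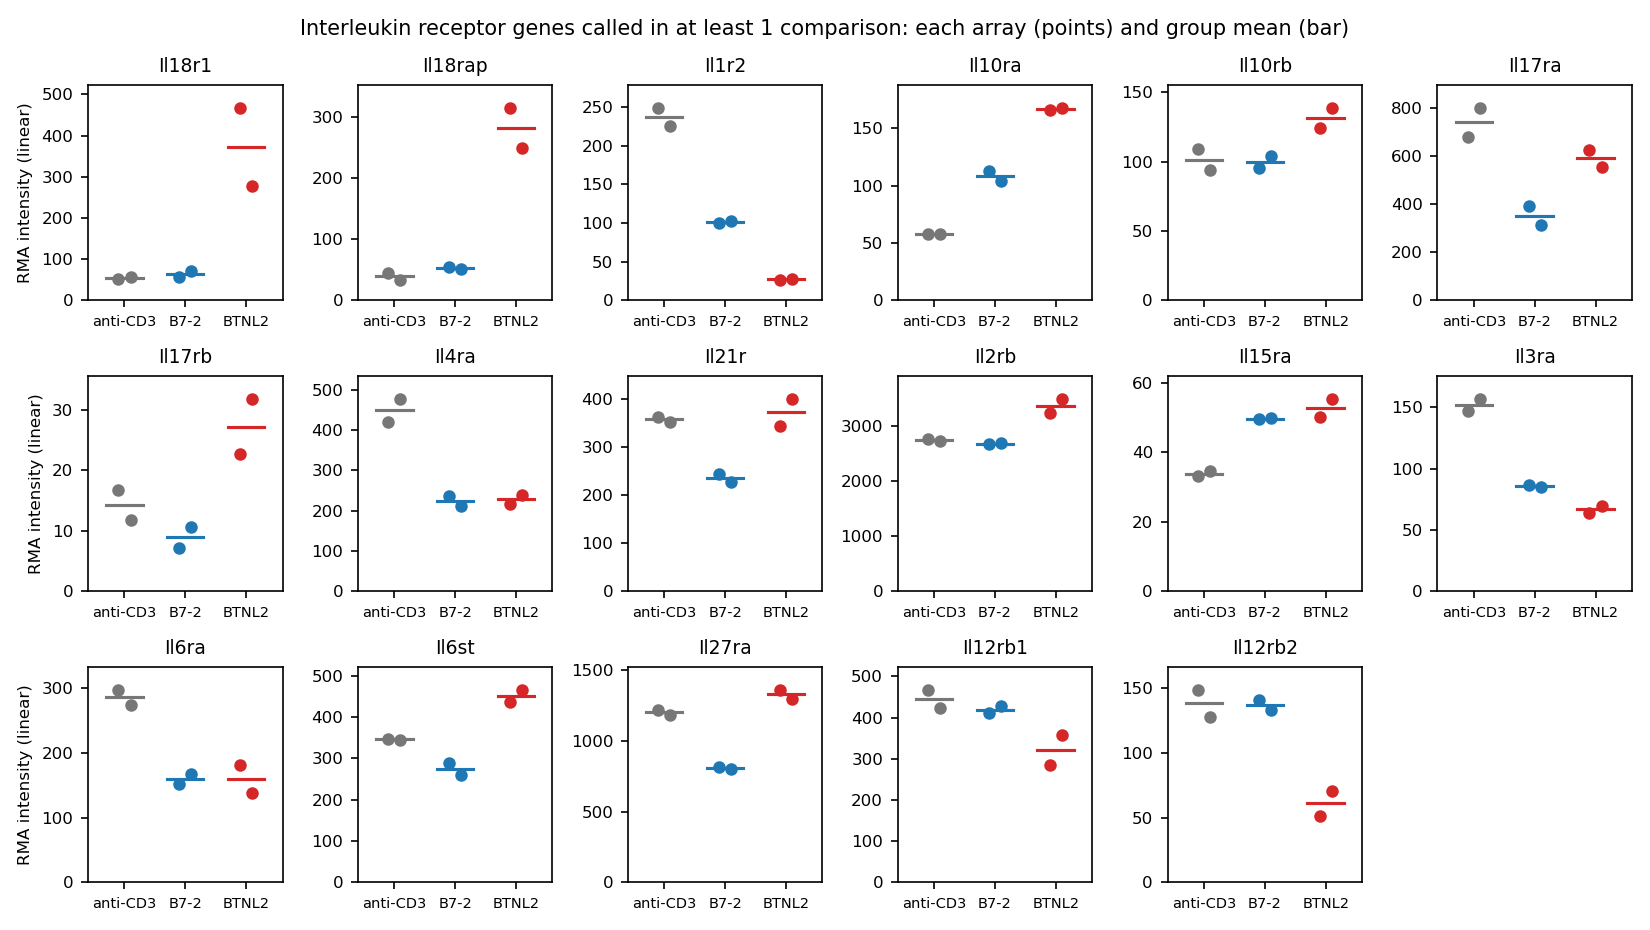
RMA intensity on a linear axis from 0 for the 17 receptor genes called in at least 1 comparison; points are arrays (2 per group), bars are group means, grey is anti-CD3, blue B7-2 and red BTNL2. The BTNL2 points of Il18r1 and Il18rap lie far above the rest, Il1r2 and Il3ra step down, Il10ra steps up, and the B7-2 points are lowest for Il17ra, Il21r, Il27ra and Il6st.

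Interleukin genes changed too, with 11 higher and 2 lower of 29 measured with B7-2, and 3 higher and 10 lower with BTNL2 against B7-2. These were 37.9% and 6.9% with B7-2 (all genes 11.2% and 13.3%) and 10.3% and 34.5% with BTNL2 (all genes 9.52% and 10.8%). The list is not limited to ligands of the 34 members, and holds Il16, Il34 and the antagonist gene Il1rn. Il16 was counted as lower with B7-2 and higher with BTNL2, and Il1rn as higher and then lower. The smallest p-values with B7-2 were those of Il13, Il9 and Il10, and with BTNL2 those of Il1rn, Il5, Il13 and Il21. Il18 read 65.5 and 56.2 with anti-CD3, 21.0 and 26.4 with B7-2, and 5.23 and 6.72 with BTNL2, where the highest nonspecific controls were 5.24 and 5.27. It was called lower with BTNL2 than with B7-2 (limma adjusted p = 0.000273), with no fold given against a level at that of the controls, in the wells where the chains of its receptor were highest. Il10 read 94.2 and 79.2, 617 and 654, and 210.3 and 289, so it fell 2.58-fold with BTNL2 (adjusted p = 0.00135) while Il10ra was higher there. Il1rn, the secreted antagonist of the IL-1 receptor, read 47.7 and 41.7, 171 and 152, and 32.3 and 29.3, and fell 5.25-fold with BTNL2 (adjusted p = 3.01e-05), as did the decoy gene Il1r2. Il1b read 16.2 to 21.1 and was not called.

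Il4 read 173 and 157, 291 and 404, and 191 and 176, and Il13 read 379.5 and 377, 1761 and 1814, and 645 and 705. Both were thus highest in the B7-2 wells, where Il4ra was at about the level of the BTNL2 wells. Il5 read 28.9 and 33.7, 472 and 456, and 21.9 and 37.3, while Il5ra stayed dim. Il3 read 5.68 and 6.89, 15.7 and 19.5, and 45.3 and 33.4, rising 2.23-fold with BTNL2 (limma adjusted p = 0.00475), the opposite direction to Il3ra. Il9, a T cell growth factor gene, read 20.4 and 19.3, 319 and 307, and 2542 and 1557, beside a dim Il9r. Il21 read 406 and 485, 333 and 282, and 11.7 and 22.6, falling 18.9-fold with BTNL2 (adjusted p = 0.000107) as Il21r rose. Ebi3, a subunit of IL-27, read 174 and 197, 389.9 and 363, and 158 and 168, highest where Il27ra and Il6st were lowest. Il17a, at 5.1 to 9.87, was dim, though called higher with B7-2 (0.00229) and lower with BTNL2 than with B7-2 (0.0206, limma adjusted p). Il25, at 9.71 to 12.1, Il6, at 3.67 to 5.19, Il15, at 5.9 to 7.42, and Il12a, at 5.4 to 7.27, were dim and not called. Il2 read 15.8 and 11, 15.5 and 20.2, and 19.1 and 24.4, while IL-2 protein had been added to every well. Its gene was called 1.64-fold higher in the BTNL2 than in the anti-CD3 wells (limma adjusted p = 0.0418), but not in the other comparisons.

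**Figure D4:**
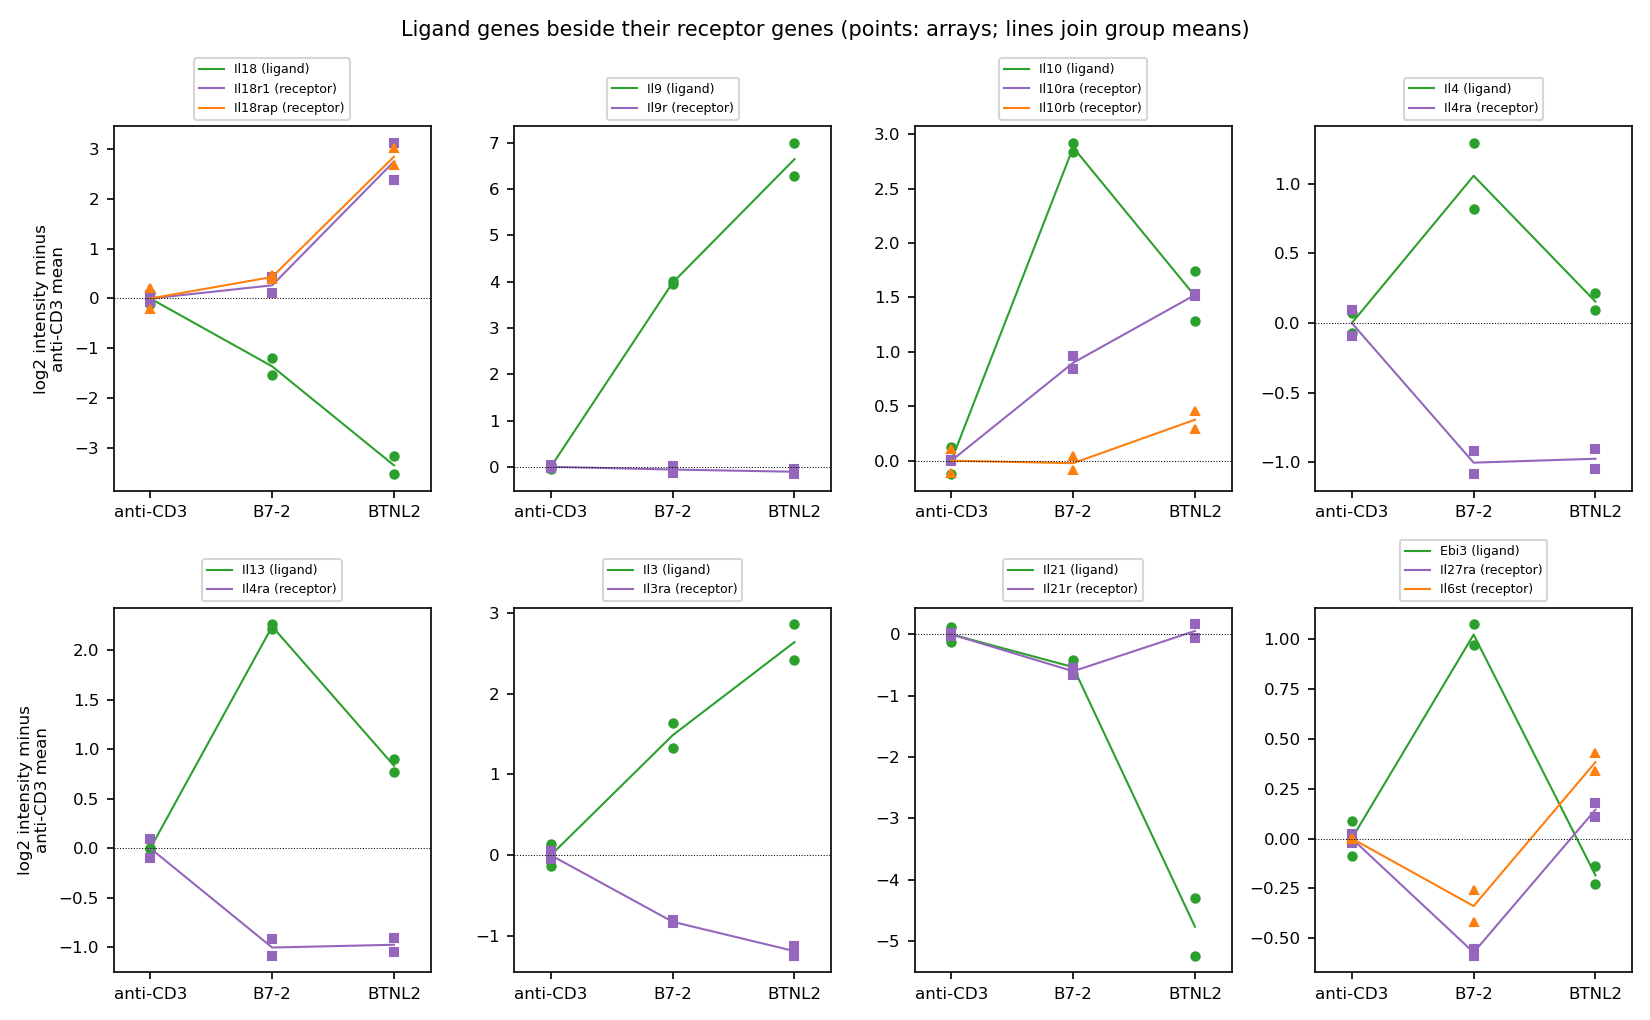
log2 intensity minus the mean of the anti-CD3 wells for 8 ligand genes (green circles) and receptor genes of theirs (purple squares, orange triangles); points are arrays, lines join group means. Il18 falls where Il18r1 and Il18rap rise, Il10 is highest with B7-2 while Il10ra is highest with BTNL2, and Il9 rises beside a level Il9r.

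Of the Janus kinase and STAT genes that carry these signals, 0 rose and 5 fell of 10 measured with B7-2, and 2 rose and 2 fell with BTNL2 against B7-2. Between the BTNL2 and the anti-CD3 wells 1 rose and 8 fell. In these comparisons 50%, 40% and 90% of the list were called, against 24.5%, 20.4% and 30.4% of all genes. The list's measured genes all read above the dim level, and of all genes above it 33.8%, 27.8% and 41.7% were called. The median log2 change of the list was -0.36, -0.02 and -0.39. Stat4, the factor activated by IL-12, read 1241 and 1254 with anti-CD3, 757 and 742 with B7-2, and 1628 and 1891 with BTNL2. It rose 2.34-fold with BTNL2 (log2 change 1.23 ± 0.10, limma adjusted p = 0.000262), in the wells where Il12rb2 fell. Jak1, which serves gp130, gamma chain and IL-10 receptors, rose 1.67-fold with BTNL2 (adjusted p = 0.00167) after reading 1.7-fold lower with B7-2 (adjusted p = 0.00156). Jak2 fell 1.53-fold (adjusted p = 0.00281) and Jak3, the kinase of the common gamma chain, 1.76-fold with BTNL2 (adjusted p = 0.00417). Stat2 was 1.85-fold lower with B7-2 (adjusted p = 0.00408). Without the first anti-CD3 array the calls of this list over the 3 comparisons numbered 11, against 18 with all arrays.

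Feedback genes of the pathway gave 1 higher and 4 lower of 15 with B7-2, and 1 higher and 3 lower with BTNL2, with 33.3% and 26.7% called, near the 24.5% and 20.4% of all genes. Between BTNL2 and anti-CD3 wells 1 was higher and 5 lower, 40% called against 30.4% of all genes. Socs3, an inhibitor of gp130 signals, fell 1.54-fold with BTNL2 (limma adjusted p = 0.00382), Pias2 1.65-fold (0.00188) and the phosphatase gene Ptpn2 1.32-fold (0.0285), while Pias1 rose 1.41-fold (0.0337). With B7-2, Pias3 fell 1.75-fold (0.002), Pias2 1.44-fold (0.00673) and Socs2 1.25-fold (0.033). Over the 3 comparisons this list had 15 calls, and 9 without the second anti-CD3 array. Among 13 adaptor genes of the IL-1 and Toll type, 3 were higher and 3 lower with B7-2, and 2 higher and 3 lower with BTNL2. This was 46.2% and 38.5% called, against 24.5% and 20.4% of all genes, and 30.8% between BTNL2 and anti-CD3 wells (2 higher, 2 lower), against 30.4%. Of all genes above the dim level, 33.8%, 27.8% and 41.7% were called in these comparisons. Sigirr, an inhibitory relative of the IL-1 receptors, read 1391 and 1479, 1026 and 928, and 433 and 626, and was 1.87-fold lower with BTNL2 (log2 change -0.91 ± 0.17, adjusted p = 0.00999). Irak1, a kinase downstream of IL-1 and IL-18, was 1.43-fold higher with B7-2 (0.00658) and 1.33-fold lower with BTNL2 than with B7-2 (0.0179). Irak1bp1 moved likewise, 1.52-fold up (0.00368) and 1.39-fold down (0.0116), Tab2 was 1.43-fold lower with B7-2 (0.00877), and the kinase gene Map3k7 was 1.32-fold higher with BTNL2 (0.015). This list had 15 calls, and 9, 8 and 9 without the first B7-2, the second B7-2 and the first BTNL2 array.

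Other cytokine receptor genes, which the naming rule left out, gave 0 higher and 5 lower of 16 with B7-2, and 4 higher and 0 lower with BTNL2 against B7-2. The shares called, 31.2% and 25%, were near the 24.5% and 20.4% of all genes. Between BTNL2 and anti-CD3 wells 2 were higher and 4 lower, 37.5% called against 30.4% of all genes. Ifngr1, the binding chain of the interferon gamma receptor, read 161 and 140.4, 88.1 and 90.2, and 181 and 192. It was 1.69-fold lower with B7-2 (limma adjusted p = 0.00224) and 2.1-fold higher with BTNL2 than with B7-2 (adjusted p = 0.000459). Ifnar1 rose 1.38-fold (0.0311), Ifngr2 1.32-fold (0.0393) and Crlf3 1.39-fold (0.0173) with BTNL2. Ifnar2 and Crlf2, a chain of the TSLP receptor, were 1.87-fold (0.00138) and 1.44-fold lower (0.00465) with B7-2.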

How the data were processed

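Messenger RNA of 6 cultures was measured on 1-colour oligonucleotide arrays after amplification of 50 ng of RNA, per the labels' protocols. The authors deposited linear intensities per probe set, made with RMA per the submitters' processing notes; which software ran it is not given in the sources used here. RMA makes the arrays' distributions alike, so a change common to most genes would not show, and it compresses changes of dim probe sets.

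From the deposited intensities log2 values were taken. Of 45141 probe sets, 104 were controls, 28898 had 1 symbol in the platform annotation, 551 several and 15588 none. For 28689 of them the Entrez identifier gave the current symbol in RefSeq's GRCm38.p6 table. Each gene was read through its probe set of highest mean (17097 genes, no filter). Of the 34 members 15 had several probe sets. All arrays entered 1 limma 3.58.1 fit in R 4.3.3 (lmFit, eBayes; 3 residual and 4.02 prior degrees of freedom), two-sided, Benjamini-Hochberg over all genes. Errors are SE of the log2 change, and intervals are 95% intervals from the fit. The fit was tested on simulated data, but the outcome is not given here and lends the calls no support. Alternatives changed the variance prior, arrays fitted, dim filter, scaling, probe sets per gene and replicate block, and left out each array. Leaving out an array of the group outside a comparison amounts to fitting only the groups compared. A call lost that way reflects fewer degrees of freedom and not a changed difference. The number of arrays limits the precision.

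Members and gene lists were chosen with earlier results of these data known. Named were the 10 largest called rises and falls per comparison and 15 members fixed by name, of which 12 were measured (the others were not analysed here), plus ligand genes of these receptors and, per other list, the 4 and 3 called genes of smallest p with BTNL2 and B7-2. Other ligand genes and some dim ones were named after their values were seen. Protein sequences were not used here, and promoter windows are RefSeq's (GRCm38.p6).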

Additional observations from a re-analysis of the deposited data

How the results depend on the processing

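The count of called receptor genes was 8 to 12 for B7-2 against anti-CD3 (10 in the main analysis), 10 to 16 for BTNL2 against B7-2 (13) and 12 to 15 for BTNL2 against anti-CD3 (14) over the alternatives with all arrays, and 9 to 10, 9 to 12 and 10 to 12 with 1 array left out. Of 37 calls over the 3 comparisons, 25 were kept in each of the 15 alternatives and 0 changed sign; the other 12 (Il6st in all 3, Il10rb and Il2rb in both with BTNL2, Il15ra with B7-2, Il17ra and Il3ra for BTNL2 against B7-2, Il12rb1 and Il17rb for BTNL2 against anti-CD3) were lost in at least 1. With 1 array left out, over the 3 comparisons, calls numbered 11 to 16 for JAK and STAT genes, 9 to 14 for feedback genes and 8 to 12 for adaptor genes; fewer arrays were then fitted. Signs turned only for members that were not called. For B7-2 against anti-CD3, Il12rb2 (-0.01) was 0.01 after a repeated quantile normalization, 0.01 after median centring and -0.12 to 0.10 with 1 array left out. Il2ra (0.11) was -0.01 as the mean of its probe sets, and Il9r (-0.06) was -0.14 to 0.03 with 1 array left out. For BTNL2 against B7-2, Il6ra (-0.01) was 0.05 as the mean of its probe sets and -0.20 to 0.18 with 1 array left out, Il4ra (0.03) -0.05 to 0.11 and Il9r (-0.05) -0.13 to 0.04. For BTNL2 against anti-CD3, Il21r (0.06) was -0.05 to 0.17. The cause was not tested. With a variance prior that follows intensity, Il2ra (-0.16, limma adjusted p = 0.0108) and Il12rb1 (-0.39, 0.0125) were called lower for BTNL2 against B7-2. As the mean of its probe sets Il2ra was called lower with BTNL2, at -0.32 against B7-2 and -0.33 against anti-CD3. Same-numbered cultures did not deviate together (r = -0.06 to 0.00 between groups over genes). This cannot show whether they shared an animal or a preparation, so pairing remains unknown. With a replicate block the counts were 10, 11 and 12, and Il18rap was called higher for B7-2 against anti-CD3 (0.43, limma adjusted p = 0.0433 against 0.116). Dim members gave weak signal, and none was called in the main analysis. Il1rapl1 and Il1rapl2 read in the range of the nonspecific controls. The other dim members read above the highest control value of 5.99.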
